A study of Mus musculus with 18 samples.

Results

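The infarcted left ventricle (LV) was compared with the non-infarcted LV of mice treated with liraglutide, over all genes. All 3 libraries whose labels read infarcted LV with liraglutide and all 3 that read non-infarcted LV with liraglutide were taken, so 6 of the 18 libraries of the study. The animals were male C57BL/6J mice in which the LAD coronary artery had been tied off to cause a myocardial infarction, and tissue was taken on day 3. Every animal was infarcted, so the non-infarcted LV is the remote muscle of an infarcted heart and not healthy muscle, and sham-operated hearts were not analysed here. The 6 libraries of the same regions from infarcted mice given PBS served for one comparison. The sources used here do not give the dose or schedule of liraglutide, how the infarct was cut out, whether its border was included, or whether pieces with the same number came from 1 mouse. Libraries are called biological replicates in the labels, and p-values measure the spread between them.

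Liraglutide activates the receptor for the incretin hormone GLP-1 and is used to lower blood glucose. When a coronary artery is closed, cardiomyocytes in its territory die, neutrophils and then monocytes enter, macrophages clear debris, and fibroblasts and vessels build the scar. Surviving muscle at the edge keeps contracting under altered load, and stressed cardiomyocytes are known to lower genes of fatty acid oxidation and to raise the B-type natriuretic peptide.

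Levels are CPM, counts scaled to a common library size. Fold changes are on the log2 scale, infarct-labelled over non-infarcted, so a positive value is a higher level in the infarct-labelled tissue. A signed or unsigned value given alone after a gene is its log2 fold change. A gene counts as called at an adjusted p under 0.05 in edgeR's quasi-likelihood test over all 13022 genes tested. Total counts ran from 8211804 to 11181101 in the infarct-labelled and from 11991818 to 15698897 in the non-infarcted libraries, so the infarct-labelled ones were all shallower. In a principal component analysis of the 12 LV libraries the first component held 65.7% of the variance. On it the infarct-labelled libraries stood at 30.8, 30.6 and 44.8 and the non-infarcted ones at -39.8, -36.7 and -37.0. Infarct-labelled replicate 3 lay farther out than the other 2.

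The infarct-labelled tissue still held much heart muscle RNA. The 20 contractile genes of cardiomyocytes summed to 87022 to 110087 CPM against 126347 to 134617 CPM, a ratio of means of 0.767. Several genes of the early scar and its immune infiltrate were near the detection limit in both regions, and were picked here for that. Over 3 libraries each, Spp1, the osteopontin of infarct macrophages, gave 37 and 30 counts in the infarct-labelled and non-infarcted LV, Arg1 10 and 9, the monocyte gene Ly6c2 19 and 10, the neutrophil gene Ly6g 5 and 4 and the scar fibroblast gene Cthrc1 6 and 4. Other members of the same lists were higher in this tissue, among them 17 of 17 tested markers of recruited macrophages, 11 of 15 of neutrophils, 18 of 23 of activated fibroblasts and 19 of 19 collagens. Since the sources do not give how the tissue was cut, the libraries are called infarct-labelled below. In bulk tissue, fewer cells of a type and less RNA per cell cannot be told apart.

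Levels differed between the regions for 49.8% of the genes tested. Of 13022 genes, 6479 were called, 3559 of them higher (27.3%) and 2920 lower (22.4%) in the infarct-labelled LV. Large changes lay mostly on the higher side: 1294 called genes (9.94%) were at least 2-fold higher and 279 (2.14%) at least 2-fold lower. Tested against a fold change of 2 itself, 405 genes passed, 90.9% of them higher. The 3 CPM values of one region lay wholly apart from those of the other for 60.1% of genes, 29.3% higher and 30.7% lower. Without infarct-labelled replicate 3, 5668 genes were called. The median over all genes tested was -0.02. All counts of list members below stand against these shares.

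**Figure D1:**
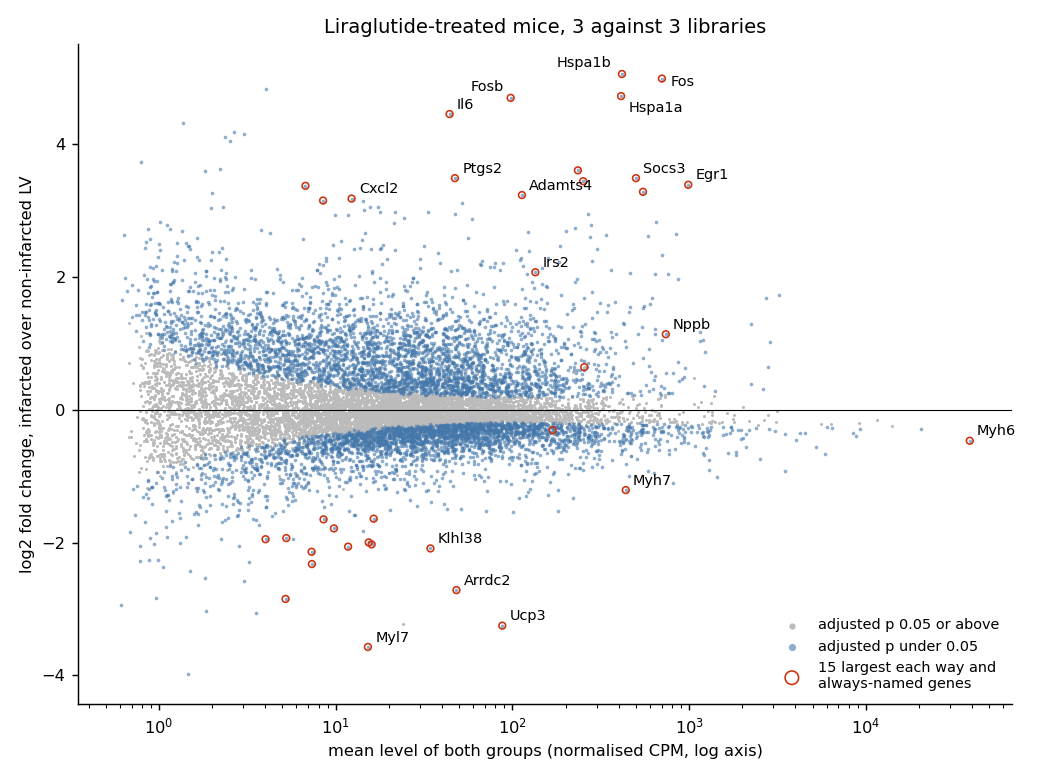
Each point is 1 of the 13022 genes tested, with its mean normalised CPM over both groups on a log axis and its log2 fold change, infarct-labelled over non-infarcted LV, in liraglutide-treated mice (3 libraries each). Called genes are blue, and circles mark the 15 largest changes each way chosen by rule together with Irs2, Mtus2, Nppa, Nppb, Myh6 and Myh7. The circled genes above 4 are immediate early, heat shock and cytokine genes, and Myh6 lies far to the right just below 0.

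Immediate early transcription factors had the highest median of the gene lists with at least 5 tested members. They are induced within minutes of stress, stretch or growth signals and fade quickly. All 20 listed factors were tested and all 20 were higher in the infarct-labelled LV, with log2 fold changes from 0.94 to 4.99 and a median of 2.45. Fos, a subunit of the AP-1 factor, stood at 1108, 1346 and 1626 CPM in the infarct-labelled libraries and 17.0, 39.2 and 74.9 CPM in the non-infarcted ones. The lowest infarct-labelled library was thus far above the highest non-infarcted one, while the non-infarcted libraries differed several-fold among themselves (log2 fold change 4.99, SE 0.653, adjusted p = 0.00412). Without non-infarcted replicate 3, the highest of them, its value was 5.61. Fosb, another AP-1 subunit, stood at 169.6, 211 and 184 against 3.99, 6.83 and 11.5 CPM (4.70, adjusted p = 1.15e-04). Egr1, a zinc finger factor, varied little, with 1640.1, 1907 and 1865 against 167, 174 and 182 CPM (log2 fold change 3.39, SE 0.0976, adjusted p = 5.77e-12). Nr4a1, an orphan nuclear receptor, had 415, 401 and 564 against 26.5, 53.9 and 48.1 CPM (3.45, adjusted p = 4.77e-04). Atf3, a stress-induced repressor, had 824, 958 and 1199 against 59.8, 121 and 129 CPM (3.29, adjusted p = 0.00144). These 5 genes were named by a rule that admits only called genes whose groups do not overlap. Egr2 (2.98), Nr4a3 (2.40) and Fosl2 (1.77) were called too. Fos lies on chromosome 12, 85473890 to 85477273, plus strand, and Nr4a1 on chromosome 15, 101254269 to 101274795, plus strand (GRCm38).

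Promoters of Fos and Nr4a1 are shown because both genes rose with this group. They give the 250 bases before the RefSeq start (GRCm38.p6), with TGACG, the core of a cAMP response element, on either strand in capitals.
Fos, chr12:85473640-85473889, plus strand: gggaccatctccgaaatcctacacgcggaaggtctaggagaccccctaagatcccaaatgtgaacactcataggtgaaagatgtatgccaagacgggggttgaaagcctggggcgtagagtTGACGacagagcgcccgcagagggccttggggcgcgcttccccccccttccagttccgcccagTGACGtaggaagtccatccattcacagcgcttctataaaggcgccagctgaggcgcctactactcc
Nr4a1, chr15:101266596-101266845, plus strand: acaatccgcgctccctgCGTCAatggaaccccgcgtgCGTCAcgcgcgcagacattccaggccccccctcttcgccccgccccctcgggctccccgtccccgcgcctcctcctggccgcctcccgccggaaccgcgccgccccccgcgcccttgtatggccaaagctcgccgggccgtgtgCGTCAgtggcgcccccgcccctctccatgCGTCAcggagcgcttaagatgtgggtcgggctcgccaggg
Fos held 2 matches and Nr4a1 4. Among the immediate early factors 10 of 15 with a RefSeq promoter held TGACG in at least 1 of their promoters, against 19.8% of all 27025 genes. The AP-1 site TGANTCA was in 0 of the 15, and in 7.82% of all genes. A match is a description of letters and not of binding.

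Most heat shock chaperones, which refold damaged proteins, were higher as well. Of 16 tested, 12 were higher and 1 lower, with a median of 0.71. Hspa1b, an inducible HSP70, had the largest fold change of the genes named, at 487, 652 and 1287 CPM in the infarct-labelled libraries and 3.47, 20.6 and 50.9 CPM in the non-infarcted ones (log2 fold change 5.06, SE 1.06, adjusted p = 0.0190). Its neighbour Hspa1a followed the same libraries, at 493, 646 and 1244 against 6.33, 26.9 and 59.1 CPM (4.73, adjusted p = 0.0170). Both varied widely within each group, and neither passed without non-infarcted replicate 2 (adjusted p = 0.0790 and 0.0720). Without non-infarcted replicate 3 their log2 fold changes were 6.07 and 5.58. Dnajb1, the partner of HSP70, had 267, 398 and 636 against 21.2, 31.3 and 56.3 CPM (3.61, adjusted p = 0.00754). The small heat shock protein Hspb1 was higher by 1.97 and Dnaja1 by 1.84, both with little spread (SE 0.143 and 0.181). Hspb7, a small heat shock protein of cardiomyocytes, was the 1 member called lower (-0.45, adjusted p = 0.00219).

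A set of 3 chaperone promoters is shown, 250 bases before the RefSeq start, with the heat shock element GAANNTTC in capitals.
Hspa1a, chr17:34972157-34972406, minus strand: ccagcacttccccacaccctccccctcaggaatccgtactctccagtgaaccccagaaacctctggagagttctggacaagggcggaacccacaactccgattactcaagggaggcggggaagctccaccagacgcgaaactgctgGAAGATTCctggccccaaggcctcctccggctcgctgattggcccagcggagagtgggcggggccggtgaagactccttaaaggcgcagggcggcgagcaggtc
Hspa1b, chr17:34959239-34959488, minus strand: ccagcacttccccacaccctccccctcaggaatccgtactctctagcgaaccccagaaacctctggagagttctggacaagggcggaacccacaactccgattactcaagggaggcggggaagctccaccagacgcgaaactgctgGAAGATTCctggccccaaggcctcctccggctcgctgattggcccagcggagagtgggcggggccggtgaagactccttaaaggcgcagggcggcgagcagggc
Hspb1, chr5:135887669-135887918, plus strand: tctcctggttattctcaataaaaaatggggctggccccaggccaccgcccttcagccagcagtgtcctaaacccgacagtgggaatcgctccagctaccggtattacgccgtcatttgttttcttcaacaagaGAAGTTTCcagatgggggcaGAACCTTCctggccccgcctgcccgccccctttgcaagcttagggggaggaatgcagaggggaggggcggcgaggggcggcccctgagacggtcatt
Hspa1a and Hspa1b differed at 3 of 250 positions here. The genes are near-identical copies, so reads may have been divided between them in counting and each value alone is uncertain. The element was in 7 of 12 listed chaperones with a RefSeq promoter and in 7.73% of all genes. Of those 7, Hspa1a, Hspa1b, Hspb1, Dnaja1 and Hspe1 were called higher, while Hspb6 (0.04) and Hspd1 (-0.08) did not pass.

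Most cytokine and chemokine genes tested were higher. Of 28 genes of the IL-1, IL-6 and TNF axes 24 were tested, 22 were higher and 1 lower (median 1.19). Il6 stood at 58.9, 56.3 and 137 CPM in the infarct-labelled libraries and 3.92, 2.47 and 5.47 CPM in the non-infarcted ones (log2 fold change 4.46, SE 0.613, adjusted p = 0.00467), and infarct-labelled replicate 3 was the highest. Socs3, the inhibitor that IL-6 family receptors induce, showed little spread at 802, 921 and 1032 against 73.9, 80.6 and 94.3 CPM (log2 fold change 3.49, SE 0.120, adjusted p = 3.97e-11). The inflammatory cytokine Il1b (2.58, adjusted p = 8.39e-07), its receptor Il1r1 (0.92) and the TNF receptor Tnfrsf1b (1.57) were higher too. Il11ra1, a receptor subunit for IL-11, was lower (-0.40, adjusted p = 0.00141). Ptgs2, the inducible cyclooxygenase, was among the most changed genes at 64.6, 78.3 and 117 against 6.93, 5.72 and 11.1 CPM (3.49, adjusted p = 7.13e-04).

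Of 25 chemokines 20 were tested and 19 were higher (median 2.09). The neutrophil attractant Cxcl2 had 19.0, 15.3 and 32.0 against 2.56, 1.30 and 3.68 CPM (3.18, adjusted p = 0.00119) and Cxcl3 was 3.64 higher. The macrophage chemokine Ccl3 had 6.73, 5.47 and 5.13 against 0.226, 0.455 and 0.256 CPM (4.15, adjusted p = 7.72e-08), the eosinophil attractant Ccl11 was 2.66 and Cxcl16 1.54 higher. In the non-infarcted libraries 3 counts amount to about 0.228, 0.191 and 0.250 CPM, so Ccl3 was near the detection limit there. The size of its fold change is uncertain. Ccl12 (0.37, adjusted p = 0.265) did not pass, and the other 5 were below the filter on low counts. The Cxcl2 promoter is shown as that of a chemokine among the most changed genes, with its 2 overlapping matches to an NF-kB site in capitals.
Cxcl2, chr5:90903649-90903898, plus strand: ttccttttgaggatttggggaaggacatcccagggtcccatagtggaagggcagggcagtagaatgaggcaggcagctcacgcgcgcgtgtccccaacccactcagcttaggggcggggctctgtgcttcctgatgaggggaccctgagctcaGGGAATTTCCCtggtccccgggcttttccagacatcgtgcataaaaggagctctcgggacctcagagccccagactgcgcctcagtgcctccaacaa
Such a match was in 5 of 17 listed chemokines with a RefSeq promoter and in 4.46% of all genes. The motifs were not particular to the lists they are shown with. The NF-kB site was also in 5 of 15 immediate early factors. TGACG was in 6 of 12 chaperones and 2 of 17 chemokines, against 19.8% of all genes.

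**Figure D2:**
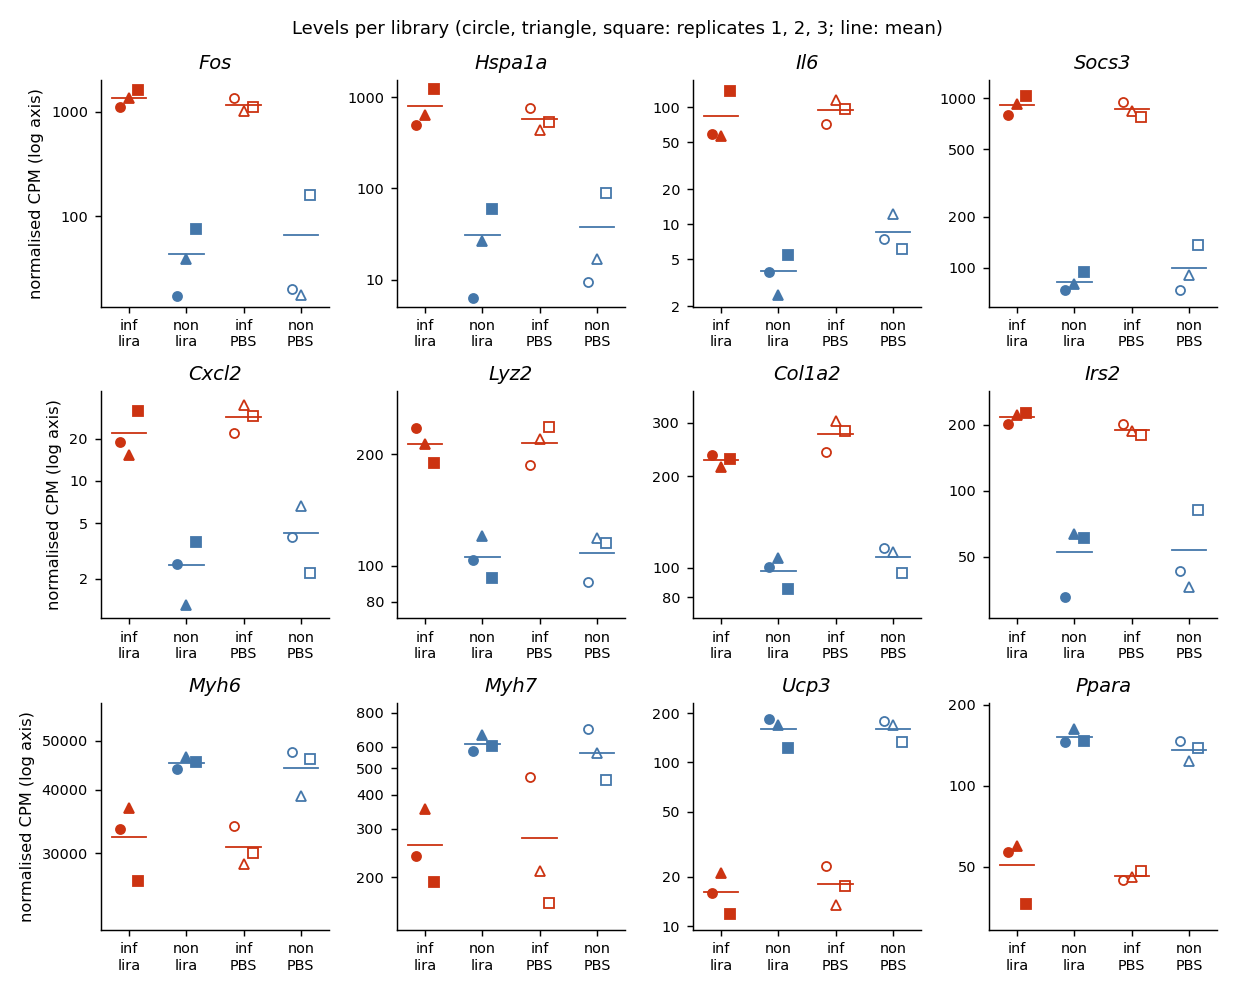
Normalised CPM per library on a log axis for 12 genes, with filled symbols for liraglutide and open symbols for PBS, red for infarct-labelled (inf) and blue for non-infarcted LV (non). Circle, triangle and square are replicates 1, 2 and 3, and the line is the mean of 3. In the liraglutide libraries no gene shown has overlapping groups, which also holds for 60.1% of all genes tested. The rule that named Fos, Hspa1a, Il6, Socs3, Cxcl2 and Ucp3 required it. Among these libraries infarct-labelled replicate 3 has the highest Fos, Hspa1a and Il6 and the lowest Myh6, Myh7, Ucp3 and Ppara.

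Most immune cell markers tested were higher, many by about 2-fold. Recruited monocyte and macrophage markers summed to 1678 to 1867 CPM against 412 to 489 CPM. All 17 members tested, of 20 listed, were called higher (median 1.03). The lysozyme gene Lyz2 had 236, 213 and 189.7 against 104, 120.4 and 92.4 CPM (log2 fold change 1.04, SE 0.103, adjusted p = 1.32e-06), the endotoxin co-receptor Cd14 36.2, 44.0 and 34.5 against 9.72, 12.3 and 11.2 CPM (1.81, adjusted p = 2.46e-08) and the macrophage surface gene Adgre1 1.53. Thbs1, a matrix protein that other cells make too, had 2.83 and dominates the summed level. Arg1, Ly6c2 and F10 were below the filter. Resident macrophage markers had a lower median, with 11 of 15 higher (median 0.54), among them the scavenger receptor Stab1 (1.12) and the platelet factor gene Pf4 (1.20). Cd163 (0.18, adjusted p = 0.317) and Timd4 (0.23, adjusted p = 0.605) did not pass. The median over 20 genes of debris and lipid handling was 0.33, with 10 higher and 2 lower. The engulfment receptor Axl (1.11) and the lipid carrier Apoe (0.74) were higher, and lipoprotein lipase Lpl (-0.34) and the lipid droplet gene Plin2 (-0.39) lower.

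Neutrophil markers summed to 195 to 258 CPM against 108 to 126 CPM. Of 15 tested 11 were higher (median 1.30), and the granule genes Ngp, Camp and Ltf as well as Ly6g and Cxcr1 were below the filter. The alarmin S100a9 had 34.1, 41.6 and 25.1 against 10.2, 14.4 and 12.3 CPM (1.48, adjusted p = 4.95e-05), the decoy receptor Il1r2 2.13 and Hdc, the histamine-forming enzyme, 2.45. Lcn2 stood at 45.9, 56.7 and 41.9 against 58.0, 45.8 and 23.9 CPM and did not pass (0.20, adjusted p = 0.684). MHC class II genes had 8 of 9 higher (median 1.20), with H2-Aa at 1.30 and H2-Ab1 at 1.20. Interferon-stimulated genes had 20 of 20 higher (median 0.92), among them the restriction factor Bst2 (1.24), Mx2 (1.77) and the signal transducer Stat2 (1.11). Mx2 is annotated as a polymorphic pseudogene. The C1 proteases C1ra (1.05) and C1s1 (1.08), their inhibitor Serping1 (1.04) and the receptor C3ar1 (1.35) were among the 12 of 19 complement and acute-phase genes that were higher (median 0.60), with 0 lower. The acute-phase genes Saa3 (0.03, adjusted p = 0.946) and Serpina3n (-0.36, adjusted p = 0.0773) did not pass.

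B cell markers were higher in 6 of 6 tested (median 2.31), from a sum of 38.5 to 41.0 CPM against 14.1 to 16.3 CPM, which includes Ebf1, a factor of stromal cells too. Of 15 T and NK cell markers in the table only Il7r (1.45) and Cd4 (1.41) were tested, and Cd4 lost its call without infarct-labelled replicate 2 (1.17, adjusted p = 0.0551). Of 7 mast cell markers 3 were tested, and Kit (1.59), Mcpt4 (1.86) and Tpsb2 (2.11) were higher. Without non-infarcted replicate 1 Tpsb2 had 2.704, and Mcpt4 had no count in non-infarcted replicate 3. Cpa3 (28 against 16 counts over 3 libraries each), Cma1 (33 against 16), Fcer1a and Ms4a2 were below the filter. Of 10 dendritic cell markers 4 were tested, and Zbtb46 (0.80), Fscn1 (1.003) and Batf3 (1.76, and 2.68 without non-infarcted replicate 2) were higher. The haemoglobin genes of red cells are listed at 0 in all 6 libraries, and Alas2, the haem synthesis enzyme, was 1.56 higher.

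Genes of fibroblasts and their matrix were higher, most by about 2-fold. Fibroblast identity genes summed to 4996 to 5978 CPM against 2295 to 2414 CPM, with 17 of 18 higher (median 1.12). The actin-severing Gsn (1.29, adjusted p = 4.54e-08), dermatopontin Dpt (1.34), the proteoglycan Lum (1.18) and Pi16 (1.30) had the smallest p, and Lamc3 (-0.10, adjusted p = 0.846) did not pass. Collagen genes were higher in 19 of 19 tested (median 1.24), and Col11a1 was below the filter. Col1a2, of type I collagen, stood at 236, 214 and 229 CPM in the infarct-labelled libraries and 100.3, 108 and 85.3 CPM in the non-infarcted ones (log2 fold change 1.23, SE 0.0910, adjusted p = 6.04e-08), and its groups lay well apart. Col5a1 (1.37), Col5a2 (1.32) and Col8a1 (1.24) followed.

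Most genes of fibroblast activation were higher. Of 23 tested 18 were higher and 1 lower (median 1.10). The matrix gene Fbln2 (1.504, adjusted p = 1.89e-08), the protease inhibitor Timp1 (1.72), Sparc (1.14) and the crosslinking enzyme Loxl1 (1.24) rose. Postn, the periostin of activated fibroblasts, had 71.1, 71.5 and 98.9 against 46.9, 42.9 and 26.3 CPM (1.07, adjusted p = 0.0137). Lrrc15, a surface protein of mature myofibroblasts, was lower at 12.3, 11.2 and 10.5 against 15.98, 19.9 and 20.3 CPM (-0.70, adjusted p = 4.06e-04). Comp (-0.63, adjusted p = 0.134) and Ccn4 (-0.67, adjusted p = 0.175) did not pass, and Cthrc1 was below the filter.

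Matrix proteases and their inhibitors were higher in 20 of 24 (median 1.13), with no member lower. Adamts4, an aggrecan- and versican-cleaving protease, was among the most changed genes at 164, 196 and 254 CPM in the infarct-labelled libraries and 21.5, 24.0 and 20.3 CPM in the non-infarcted ones (log2 fold change 3.24, SE 0.156, adjusted p = 7.82e-08). The urokinase receptor Plaur (2.22), the gelatinase Mmp2 (1.27) and the membrane protease Mmp14 (1.22) rose too. TGF-beta and BMP genes had 18 of 23 higher (median 0.83), with the stress hormone Gdf15 (2.24, adjusted p = 2.14e-07), the activin antagonist Fst (2.20), Smad3 (1.24) and Tgfb1 (0.97). Spon2, an extracellular matrix protein, was in the group of 15 most raised genes at 23.1, 8.11 and 5.60 against 2.11, 0.911 and 0.598 CPM (3.38, adjusted p = 0.0273), where infarct-labelled replicate 1 stood apart. Without that library its value was 2.52, and the call was lost without non-infarcted replicate 1 (4.02, adjusted p = 0.0626), 2 (3.17, adjusted p = 0.0880) or 3 (3.09, adjusted p = 0.0854). Gdnf, a neurotrophic factor, had 11.1, 14.3 and 20.3 against 1.13, 1.82 and 2.22 CPM (3.15, adjusted p = 9.71e-07).

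Most vessel genes were higher, too. Endothelial markers summed to 6297 to 7620.4 CPM against 3678 to 4024 CPM, with 20 of 22 higher (median 0.93). The tight junction gene Cldn5 (1.85, adjusted p = 7.96e-09) led by p, and the nitric oxide synthase Nos3 (1.26), the cadherin Cdh5 (1.17) and Emcn (1.12) followed. Of 16 smooth muscle and pericyte markers 10 were higher (median 0.77). The pericyte genes Rgs5 (1.17) and Kcnj8 (1.49) were among them, while smooth muscle myosin Myh11 (0.59, adjusted p = 0.190) and Cnn1 (0.79, adjusted p = 0.0708) did not pass. Coagulation and platelet genes were higher in all 11 of 11 tested (median 1.49), led by the plasminogen activator Plat (1.49, adjusted p = 2.34e-08) and thrombomodulin Thbd (2.11). Of 21 angiogenic factors 12 were higher and 2 lower (median 0.44): adrenomedullin Adm (1.98), the lymphangiogenic Vegfc (1.86) and the VEGF receptor Flt1 (1.04) rose, and Fgf1 (-0.38) and Vegfb (-0.27) fell. The Vegfb call was lost without non-infarcted replicate 3 (-0.23, adjusted p = 0.0729).

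Epicardial markers were sparse, with 5 of 12 in the table tested and 4 higher. The call of Msln (1.305, adjusted p = 0.0499) was lost without infarct-labelled replicate 1 (0.122) or 2 (0.194). It was also lost without non-infarcted replicate 2 (0.0953) or 3 (0.0781). That of Tbx18 (0.54, adjusted p = 0.0193) was lost without infarct-labelled replicate 3 (0.103) or non-infarcted replicate 1 (0.0780). The epicardial factor Wt1 had 24.4, 29.5 and 28.3 against 7.91, 8.71 and 7.69 CPM (1.77, adjusted p = 2.66e-08) and Aldh1a2, which makes retinoic acid, 1.43. Lymphatic markers had 5 of 6 higher, with podoplanin Pdpn at 1.65 and the receptor Flt4 at 0.89. The sixth, Prox1, the identity factor of lymphatic endothelium, was lower (-0.35, adjusted p = 0.0170), not without infarct-labelled replicate 3 (-0.23, adjusted p = 0.0685) or non-infarcted replicate 2 (-0.33, adjusted p = 0.0586). Nerve and Schwann cell genes had 5 of 11 higher (median 0.47), including Ncam1 (0.69) and Scn7a (0.54).

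**Figure D3:**
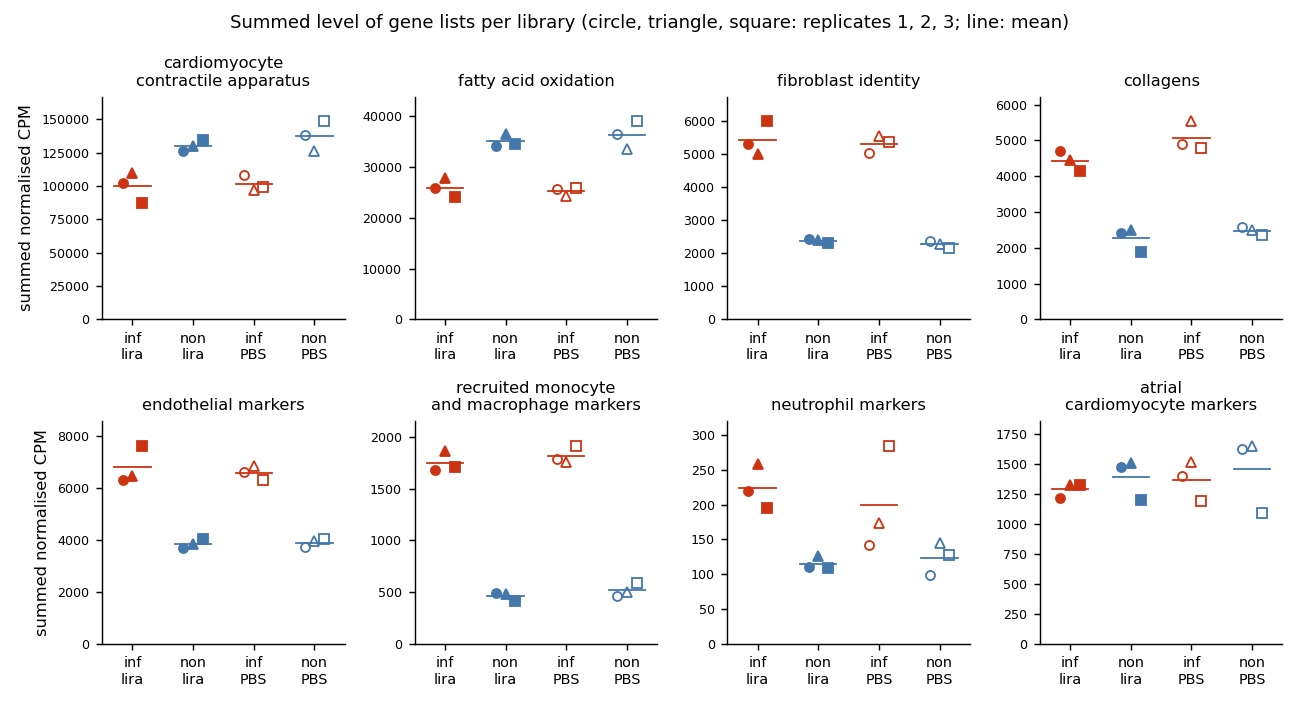
Summed normalised CPM of 8 gene lists per library, on linear axes that start at 0, with filled symbols for liraglutide and open symbols for PBS, red for infarct-labelled (inf) and blue for non-infarcted LV (non). Circle, triangle and square are replicates 1, 2 and 3 and the line is the mean of 3. In the liraglutide libraries contractile and fatty acid oxidation genes are lower and stromal, endothelial and immune lists higher in the infarct-labelled LV, without overlap. The atrial list overlaps with either treatment. With PBS the neutrophil markers overlap too, at 142 CPM in infarct-labelled replicate 1 and 144 CPM in non-infarcted replicate 2.

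Most contractile and calcium genes of heart muscle fell by a small amount. Of 20 contractile genes 14 were lower and 0 higher, with a median of -0.35. Myh6, the alpha myosin heavy chain and main adult isoform of the mouse, stood at 33539.6, 36796 and 26508 CPM in the infarct-labelled libraries and 43932, 46373 and 45475 CPM in the non-infarcted ones (log2 fold change -0.47, SE 0.115, adjusted p = 0.00360), and infarct-labelled replicate 3 was the lowest. The actin filament regulator Lmod2 had 498, 629 and 415 against 1021, 1213 and 1117 CPM (-1.10, adjusted p = 1.62e-05), the Z-disc genes Tcap -0.75 and Ldb3 -0.65, and titin, Ttn, -0.55. Actc1 (-0.15, adjusted p = 0.237), Tnnc1 (-0.17, adjusted p = 0.166) and Nrap (0.11, adjusted p = 0.440) did not pass. Calcium handling genes were lower in 13 of 14 (median -0.39). They include phospholamban, Pln (-0.66, adjusted p = 7.93e-05), the sodium-calcium exchanger Slc8a1 (-0.61), Jph2, which holds the dyad together (-0.61), and the calcium channel Cacna1c (-0.49). Sln, which is on this list too, is described with the atrial genes.

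Channel, receptor and transcription factor genes were called in both directions. Of 20 channel and connexin genes 13 were lower and 3 higher (median -0.46). The potassium channel genes Kcnh2, which carries the rapid repolarising current (-1.22, adjusted p = 6.52e-07), Kcnj12 (-1.10), Kcnj11, the pore of the ATP-sensitive channel (-0.92) and Kcnj3 (-0.73) were lower. The connexins Gja1 (0.93), which non-muscle cells also make, and Gja5 (1.20), and the channel Kcna5 (0.88) were higher. Among receptor and peptide genes 8 were lower and 7 higher of 17 tested. The orphan receptor Gpr22 had 7.44, 5.65 and 5.71 against 14.8, 20.5 and 22.1 CPM (-1.58, adjusted p = 3.03e-06), the muscarinic receptor Chrm2 -0.92, the alpha receptor Adra1a -1.20 and the angiotensin receptor Agtr1a -0.75. Endothelin, Edn1 (1.98), its receptor Ednrb (1.19) and angiotensinogen, Agt (1.69), were higher. Of 20 cardiac transcription factors 9 were lower and 3 higher. Hand2 (-1.39, adjusted p = 1.59e-06), Irx3 (-1.23), Tbx5 (-1.15) and Irx4 (-0.92) fell, the Mef2 genes did not pass (-0.07 to -0.05), and the Notch target Heyl (1.17) and Nr2f2 (0.54) rose.

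Most wall stress genes rose while Myh7 fell. Of 14 natriuretic and fetal stress genes 10 were higher and 1 lower (median 0.75). Nppb, the B-type natriuretic peptide, stood at 882, 1076 and 1074 CPM in the infarct-labelled libraries and 362, 501 and 535 CPM in the non-infarcted ones (log2 fold change 1.14, SE 0.136, adjusted p = 2.72e-05). The matricellular Ccn1 (2.04, adjusted p = 3.98e-07), the actin crosslinkers Flnc (1.73) and Actn1 (0.75) and the intercalated disc gene Xirp1 (1.69) rose as well. Nppa had 255, 359 and 315 against 236, 231 and 137 CPM (0.64, adjusted p = 0.0678), without overlap, and passed without non-infarcted replicate 1 (0.77, adjusted p = 0.0448) or 3 (0.43, adjusted p = 0.0145). Myh7, the beta myosin heavy chain of fetal and stressed ventricle, went the other way at 238, 355 and 192 CPM in the infarct-labelled libraries and 576, 665 and 603 CPM in the non-infarcted ones (log2 fold change -1.21, SE 0.212, adjusted p = 0.00285). Mir208b, the miRNA gene that lies within Myh7, had 9.24, 8.66 and 5.36 against 22.5, 20.4 and 32.2 CPM (-1.64, adjusted p = 1.21e-04), and its reads cannot be told apart from unspliced Myh7. Skeletal actin, Acta1, had 322, 457 and 289 against 879, 488 and 394 CPM and did not pass (-0.70, adjusted p = 0.209).

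Genes of oxidative metabolism were mostly lower. Fatty acid oxidation genes summed to 24115 to 27692 CPM against 34053 to 36419 CPM. Of 25 genes 22 were lower and 0 higher (median -0.36). Ucp3, an uncoupling protein that PPAR-alpha activates, stood at 15.9, 21.1 and 11.9 CPM in the infarct-labelled libraries and 185, 169.6 and 123 CPM in the non-infarcted ones (log2 fold change -3.25, SE 0.234, adjusted p = 3.70e-05), 9.52-fold lower. Malonyl-CoA decarboxylase, Mlycd (-0.83, adjusted p = 6.17e-06), the fatty acid binding protein Fabp3 (-0.55) and Etfdh (-0.47) fell less. Ppara itself, the nuclear receptor for fatty acids, had 56.6, 59.6 and 36.5 against 146, 163 and 146 CPM (log2 fold change -1.54, SE 0.149, adjusted p = 1.64e-05). Among 13 regulators of mitochondria 9 were lower (median -0.45), among them the coactivator Ppargc1a (-0.68), Perm1 (-0.66) and Esrrb (-0.76). Nrf1 was higher (0.36, adjusted p = 0.0145), not without non-infarcted replicate 1 (0.31, adjusted p = 0.0681) or with DESeq2 (0.34, adjusted p = 0.0606). Ehhadh, a peroxisomal enzyme of fatty acid oxidation, was among the 15 most lowered genes, with 6.37, 6.84 and 5.36 against 27.7, 28.5 and 21.1 CPM (-2.03, adjusted p = 5.33e-08).

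Genes of the tricarboxylic acid cycle and of ketone and branched-chain amino acid oxidation were lower in 18 of 23 (median -0.29). Ppm1k, the phosphatase that activates branched-chain keto acid oxidation (-0.57, adjusted p = 4.82e-04), Idh3a (-0.44), the ketone enzyme Oxct1 (-0.35) and Dlst (-0.34) led by p. Nuclear-encoded respiratory chain genes had the median nearest 0 of the oxidative lists, with 12 of 26 lower (median -0.22), from -0.34 for Ndufs1 (-0.34, adjusted p = 0.00295) to 0.07 for Cox8b (0.07, adjusted p = 0.587). Of 25 glycolysis and hypoxia genes 10 were higher and 3 lower (median 0.19). The glucose transporter of most cells, Slc2a1, rose (1.85, adjusted p = 1.10e-09) and that of muscle, Slc2a4, fell (-0.50, adjusted p = 4.23e-04). The platelet-type phosphofructokinase, Pfkp, rose (0.66) and the muscle form Pfkm fell (-0.33). Bnip3, a mitophagy receptor that hypoxia induces, was the other gene called lower (-0.37, adjusted p = 0.00264). Pfkfb3, which drives glycolytic flux, had 253, 242 and 295 against 54.7, 54.3 and 55.4 CPM (2.29, adjusted p = 1.10e-10). Gapdh (-0.08, adjusted p = 0.514), Pkm (-0.03, adjusted p = 0.798) and Ldha (0.19, adjusted p = 0.0769) did not pass.

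**Figure D4:**
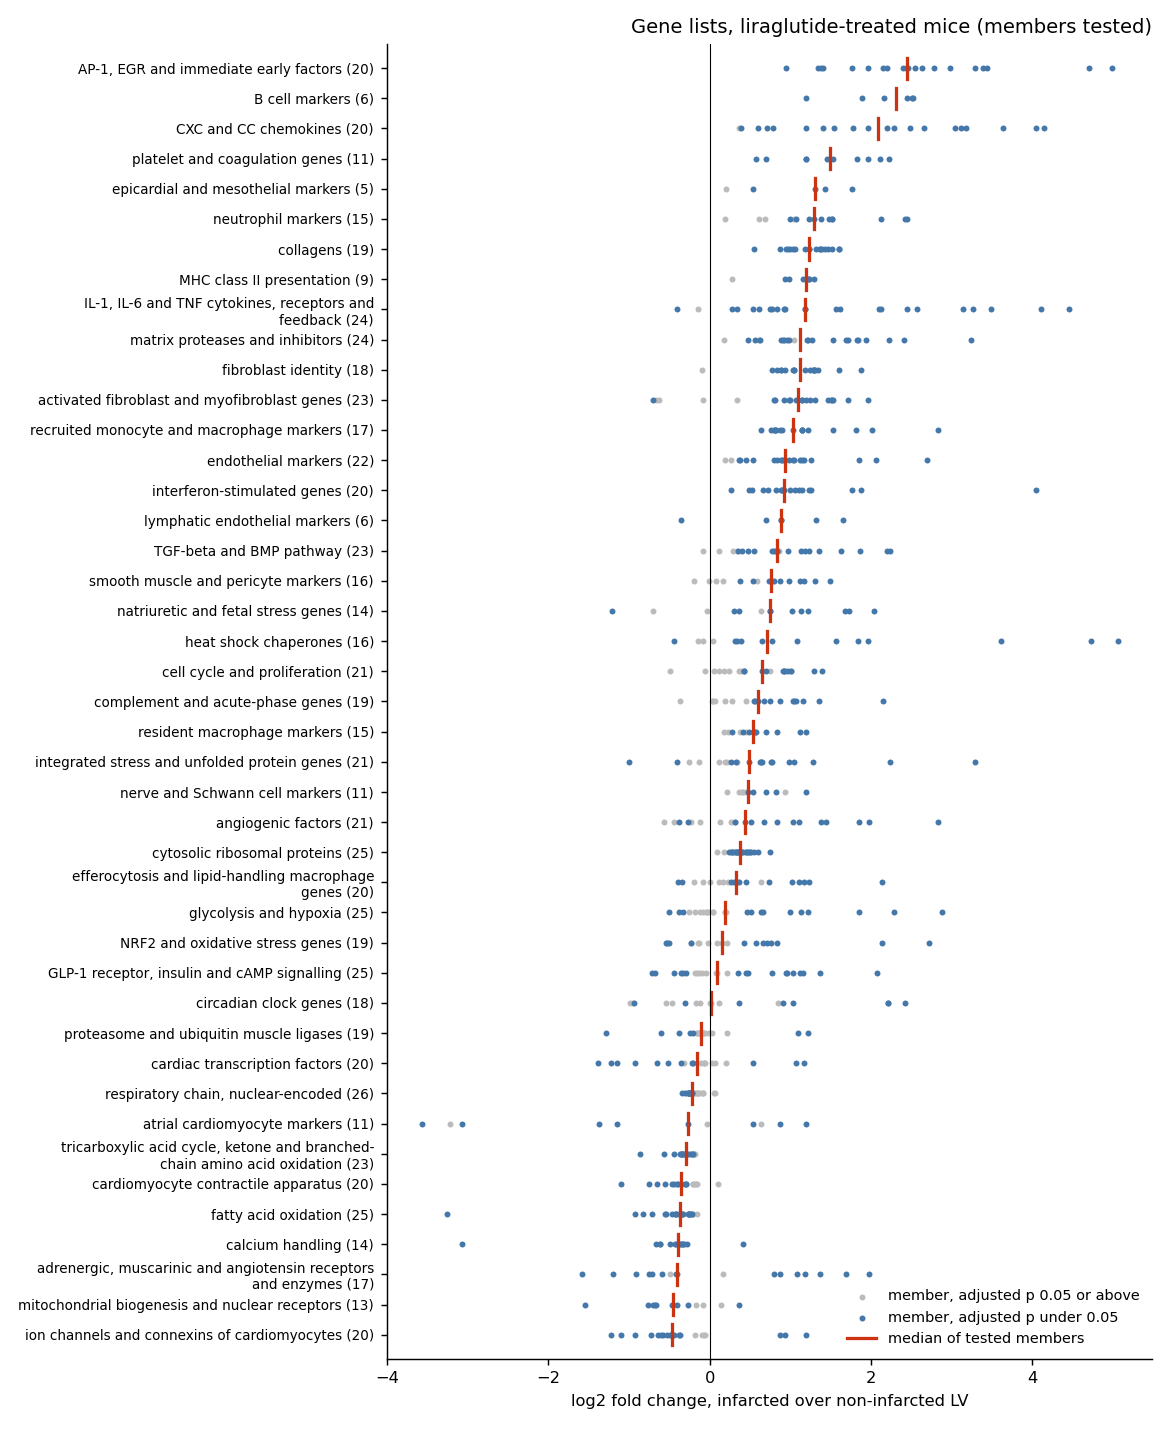
Log2 fold change, infarct-labelled over non-infarcted LV, of every tested member of the lists with at least 5 tested members, in liraglutide-treated mice. Blue points are called at an adjusted p under 0.05, grey points are not, the red bar is the median, and the number tested is in brackets. Immediate early factors stand at the top with a median of 2.45 and cardiomyocyte channels at the bottom with -0.46, and channels, receptors and transcription factors spread to both sides of 0.

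Genes of liraglutide's own pathway followed no single direction. The receptor gene Glp1r gave 1 count in the infarct-labelled and 0 in the non-infarcted LV, over 3 libraries each, so no fold is given. Of 28 genes of GLP-1, insulin and cAMP signalling 25 were tested, 11 were higher and 6 lower (median 0.09). Irs2, an adaptor of the insulin and IGF receptors, stood at 202, 222 and 228 CPM in the infarct-labelled libraries and 32.8, 63.8 and 60.7 CPM in the non-infarcted ones (log2 fold change 2.07, SE 0.250, adjusted p = 9.89e-04), a 4.21-fold difference. Its relative Irs1 was lower (-0.68, adjusted p = 2.55e-05). Igf2 (1.12) and the IGF binding proteins Igfbp7 (1.03), Igfbp4 (0.77) and Igfbp3 (0.94) were higher. The adenylyl cyclase Adcy6 (-0.44) and the beta-1 receptor Adrb1 (-0.71) were lower. Mtus2, a microtubule-associated protein, had 162, 153 and 134 against 189, 185 and 190.1 CPM (-0.31, adjusted p = 0.00666).

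Among called genes that averaged 50 counts or more and whose groups lay apart, the 15 with the largest fall were led by Myl7, the atrial regulatory light chain, at 2.42, 2.37 and 2.22 against 31.9, 44.2 and 8.21 CPM (-3.57, adjusted p = 0.0284). The atrial light chain Myl4 (4.04, 5.74 and 3.96 against 47.5, 73.0 and 9.75 CPM; -3.22, adjusted p = 0.0505) and sarcolipin, Sln (0.269, 1.19 and 0.816 against 8.06, 8.97 and 1.97 CPM; -3.07, adjusted p = 0.0206), had the same pattern, high in non-infarcted replicates 1 and 2 and low in replicate 3. Over the 11 tested of 12 atrial markers 5 were lower and 3 higher, and their sums overlapped (1215 to 1327 CPM against 1194 to 1502 CPM). The part of atrial tissue in these values was not tested. The Myl7 call was lost without any 1 of the 3 infarct-labelled libraries (adjusted p = 0.0986, 0.0992 and 0.102) or without non-infarcted replicate 1 (0.0783). That of Sln was lost without infarct-labelled replicate 1 (0.107), 2 (0.0640) or 3 (0.107).

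Ucp3 and Atcay followed. Arrdc2, an alpha-arrestin, was next and stood at 14.5, 12.9 and 10.03 CPM in the infarct-labelled libraries and 94.2, 77.9 and 79.9 CPM in the non-infarcted ones (log2 fold change -2.72, SE 0.124, adjusted p = 4.88e-10). Klhl38, a kelch protein of striated muscle, had 15.4, 13.7 and 9.33 against 63.3, 55.1 and 49.5 CPM (-2.09, adjusted p = 2.24e-07) and Adamts15, a matrix protease, 6.91, 6.29 and 4.90 against 21.3, 27.1 and 25.8 CPM (-1.998, adjusted p = 5.60e-08). Hif3a, a relative of the hypoxia-inducible factors, had 2.06, 2.19 and 2.22 against 7.46, 9.30 and 8.29 CPM (-1.93, adjusted p = 1.07e-06), and Pfkfb1, a liver and muscle relative of Pfkfb3, 4.04, 5.93 and 2.92 against 14.6, 17.8 and 13.3 CPM (-1.79, adjusted p = 4.45e-06). Scd4, a fatty acid desaturase of heart, had -1.65. Ttc30b, of intraflagellar transport (-2.06), Zfp799 (-2.14), Spata2l (-1.95) and Klhdc7a (-2.32) were named by the same rule. Atcay had -2.85, and -3.66 without infarct-labelled replicate 1, and its call was lost without infarct-labelled replicate 2 (-2.55, adjusted p = 0.0507) or 3 (-2.62, adjusted p = 0.0678). As the rule required, the groups overlapped in none of the 15. Ucp3 lies on chromosome 7, 100472990 to 100486432, plus strand, and Arrdc2 on chromosome 8, 70835129 to 70839720, minus strand (GRCm38).

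The region difference with liraglutide was set against that with PBS, which shares no library with it. With PBS, 6077 of 12831 genes were called (47.4%), 3292 of them higher and 2785 lower. Of 12749 genes tested in both, 5150 were called in both in the same direction and 0 in opposite directions. A further 1238 were called with liraglutide alone, of which 1207 had the same sign with PBS, and 905 with PBS alone. Across genes, which are not independent, the fold changes correlated with Pearson r = 0.928 and Spearman rho = 0.914. The test of the difference itself, over all 12 LV libraries, called 0 of 13325 genes in edgeR (0.0%), with 255 at an unadjusted p under 0.05 (1.91%). DESeq2 called 0 as well (157 unadjusted), and so did voom (340 unadjusted). In simulated counts of the same size and a single common dispersion, 75 of 100 genes with a 2-fold difference between treatments and 96 of 100 with a 4-fold one were recovered. There were 9 false calls. Real genes differ in spread, for example with an SE of the difference of 0.181 for Arrdc2 and 1.18 for Fos. These shares therefore do not give the power of the test in these data.

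Fold changes of single genes stood side by side as follows. Fos had 4.99 with liraglutide and 4.20 with PBS (difference 0.79, SE 1.18, unadjusted p = 0.521), Il6 4.46 with liraglutide and 3.47 with PBS (difference 0.996, SE 0.733, unadjusted p = 0.210) and Irs2 2.07 with liraglutide and 1.87 with PBS (difference 0.21, SE 0.448, unadjusted p = 0.649). Nppb had 1.14 with liraglutide and 0.95 with PBS (difference 0.19, SE 0.415, unadjusted p = 0.657), Myh6 -0.47 with liraglutide and -0.49 with PBS (difference 0.03, SE 0.146, unadjusted p = 0.835), Myh7 -1.21 with liraglutide and -1.001 with PBS (difference -0.20, SE 0.551, unadjusted p = 0.722) and Ucp3 -3.25 with liraglutide and -3.13 with PBS (difference -0.12, SE 0.366, unadjusted p = 0.758). For the heat shock gene Hspa1a the SE of the difference was 1.30, so that a several-fold difference either way would not be seen. Among the 5 genes with the smallest p in each direction were the cytokine Osm on the higher side (3.26 with liraglutide and 1.27 with PBS; difference 1.99, SE 0.617, unadjusted p = 0.00437) and the brain-type carnitine transferase Cpt1c (0.48 with liraglutide and 1.55 with PBS; difference -1.06, SE 0.292, unadjusted p = 0.00167) and the stress gene Nupr1 (1.36 with liraglutide and 2.09 with PBS; difference -0.73, SE 0.243, unadjusted p = 0.00730) on the lower side, all with an adjusted p of 0.99997. Osm stood at 2.33, 4.01 and 4.55 CPM in the infarct-labelled libraries with liraglutide and 2.28, 3.31 and 5.18 CPM with PBS, which overlapped. The non-infarcted libraries gave 0.226, 0.585 and 0.256 CPM in treated mice, all below the 0.905, 2.05 and 1.42 CPM of the PBS mice. In those treated libraries 3 counts amount to about 0.228, 0.191 and 0.250 CPM, so these levels are near the detection limit. Osm was picked by its p in this contrast, so the gap is no separate support. Medians of the main lists were 2.45 with liraglutide and 2.34 with PBS for immediate early factors, 1.03 and 0.75 for recruited macrophages, 1.24 and 1.34 for collagens, -0.35 and -0.38 for contractile genes, and -0.36 and -0.36 for fatty acid oxidation. Wider gaps stood between the medians of B cell markers (2.31 and 1.14), chemokines (2.09 and 1.38) and neutrophil markers (1.30 and 0.81). The medians of a list need not rest on the same genes. With liraglutide and PBS, 6 and 5 B cell markers and 17 and 16 recruited macrophage markers were tested. B cell markers summed to 38.5 to 41.0 against 14.1 to 16.3 CPM with liraglutide. With PBS the sums were 32.3 to 42.0 against 11.8 to 19.7 CPM. Of neutrophil markers 11 of 15 were called higher with liraglutide and 3 of 15 with PBS, of MHC class II genes 8 and 3 of 9, and of natriuretic and stress genes 10 and 5 of 14. The order was reversed in other lists. Respiratory chain genes were called lower in 12 of 26 with liraglutide and 20 of 26 with PBS. Resident macrophage markers had medians of 0.54 and 0.66 (15 and 16 tested), and unfolded protein and integrated stress genes 0.49 and 0.75. Infarct-labelled PBS replicate 3 (4280459 total counts) had neutrophil markers summing to 285 CPM, against 142 and 173 CPM in replicates 1 and 2. Its MHC class II sum was 567 against 364 and 317 CPM. The difference of a whole list between treatments was not tested, and no single member passed the test of the difference.

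**Figure D5:**
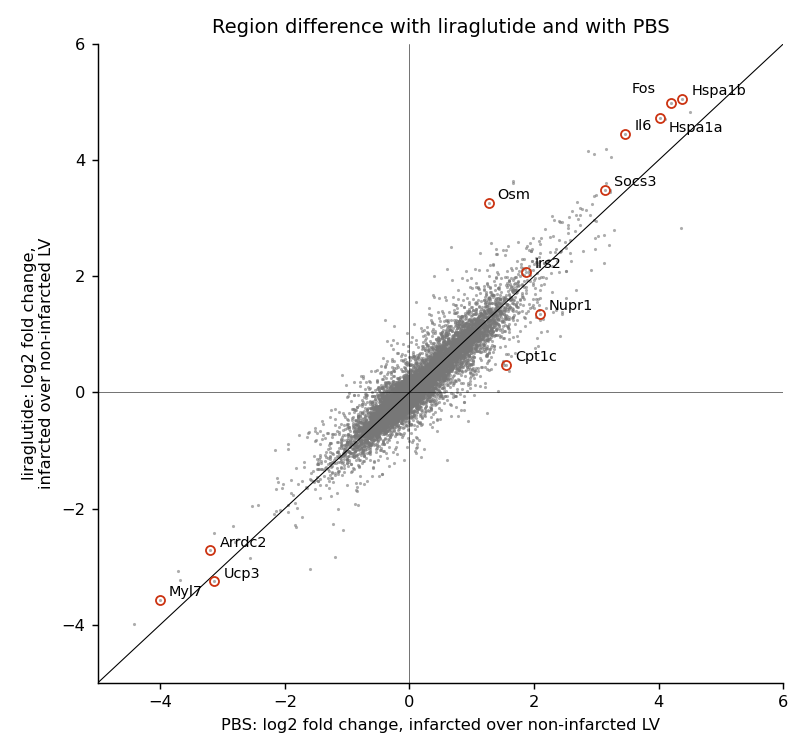
Log2 fold change, infarct-labelled over non-infarcted LV, with PBS (x axis) and with liraglutide (y axis) for the 12749 genes tested in both, each from its own 6 libraries. The line marks equal values and 12 named genes are circled. Most genes lie along the line, and Osm, the farthest of the circled genes, had an adjusted p of 0.99997 for the difference.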

How the data were processed

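Polyadenylated RNA of the infarcted and non-infarcted LV was sequenced from stranded libraries, per the labels' protocols. The authors deposited 1 matrix of raw counts with 25230 gene symbols and a column for each library. The submitters' processing notes name STAR 2.7.9a, mm10 and DESeq2. How reads were counted, with which strand setting and annotation, is not given in the sources used here, so overlapping or near-identical genes may share reads. The 6 liraglutide LV libraries were fitted in R 4.3.3 with edgeR 4.0.16: filterByExpr, TMM factors, robust quasi-likelihood F tests with 4 residual degrees of freedom and Benjamini-Hochberg adjustment over 13022 genes. SE was obtained by dividing the absolute log2 fold change by the root of F. CPM use TMM factors of the 12 LV libraries. The 49 gene lists (862 symbols, 858 in the table, 2 under another name) and the members were chosen with earlier results of these data known. Lists overlap, and single values of some members are not reported here. Named are the 15 called genes with the largest change each way (mean count of at least 50, groups not overlapping), up to 4 members of a list with the smallest p and up to 3 in the other direction, 5 genes each way for the contrast of treatments, and Glp1r, Irs2, Mtus2, Nppa, Nppb, Myh6 and Myh7; other list members were named after their values were seen, mostly as examples that did not pass. Within-group pairs of LV libraries differed by a chi-square per degree of freedom of 2.55 to 11.0, so none repeats another. Tested on simulated data for this comparison (13022 genes, 1 common dispersion), the fit recovered 91 of 100 2-fold and 100 of 100 4-fold changes, with 9 false calls. Alternatives were DESeq2 1.42.0, voom (limma 3.58.1), other factors, filters, thinning, more libraries, a replicate block and leaving out each library. Promoters are RefSeq, GRCm38.p6; locations are GENCODE M21, GRCm38.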

Additional observations from a re-analysis of the deposited data

How the results depend on the processing

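The count of called genes held within 1.5 times of the reported one in every alternative but 1. The test against a 2-fold change gave 405 genes, 368 higher and 37 lower. The other settings gave 5659 (DESeq2) to 6927 genes (upper-quartile factors), and leaving out 1 library 5645 to 6100, with 3198 to 3411 higher and 2431 to 2689 lower. Upper-quartile factors turned the split from 54.9% to 46.6% higher, with a median over all genes of -0.08. DESeq2 shared 5531 of the 6479 calls. For the contrast of treatments every setting and every library left out gave 0 genes (216 to 441 at an unadjusted p under 0.05 with 1 library left out). Of the single-gene results in the region comparison 4171 kept their side of the threshold, 250 lost it, most under the test against 2-fold, 4 gained it, all of them for Nppa, and none turned. Nppa passed with DESeq2 (0.0484) and with the replicate block (0.0296). Fitting all 18 libraries ended, among others, the calls of Klhdc7a (0.0847), Il1r2 (0.0560), S100a9 (0.0894), Lrrc15 (0.189), Adra1a (0.0993), Irx4 (0.0544), Plin2 (0.397), Scn7a (0.176), Slc7a11 (0.0832), Vegfb (0.0649), Msln (0.111) and Tbx18 (0.0579). The 12 LV libraries ended those of Myl7 (0.0622), Sln (0.0841) and Msln (0.0919), among others. With voom those of Myl7 (0.121), Sln (0.102), Spon2 (0.0533) and Msln (0.0584) ended. The cause was not tested. Of the list medians over all settings 814 stayed within the spread between replicates and 68 moved further. They changed sign for skeletal muscle markers (0.29 with DESeq2, 0.27 with no filter, 0.01 without infarct-labelled replicate 3), for clock genes (from -0.17 without infarct-labelled replicate 3 to -0.00296 with DESeq2) and for receptors and peptides (0.15 with DESeq2, 0.14 with no filter, which add low genes), so no direction is read from them. The number shared by an infarct-labelled and a non-infarcted library is not stated to mark 1 animal, and it was not taken as a pairing. Deviations of the liraglutide pairs correlated at 0.122, 0.0899 and 0.136, of which 1 was under 0.1, and those of the PBS pairs at 0.147, 0.133 and 0.149, all over 0.1; each library correlated best with its own number. With the replicate block 6788 genes were called, 3699 higher and 3089 lower. Thinning every library to the smallest gave 5779 genes. Without the filter 18390 genes were tested and 6819 called, 6287 of them among the reported calls.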

Other observations

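Several groups outside heart muscle, stroma and immune cells differed between the regions too. Ribosomal protein genes were higher in 23 of 25 by a narrow margin (median 0.38), with Rpl3 (0.75, adjusted p = 2.20e-06) and Rps14 (0.61) among them, and Rps2 (0.10, adjusted p = 0.377) did not pass. Proliferation genes had 11 of 21 tested higher (median 0.65), with cyclin D1, Ccnd1 (0.42, adjusted p = 5.00e-04), the replication helicase gene Mcm3 (0.65), Top2a (1.01) and Mki67 (0.94), and 9 members were below the filter. Unfolded protein and integrated stress genes had 13 of 21 higher and 2 lower (median 0.49). The factor Atf4 (0.99, adjusted p = 2.64e-06) and its target Trib3 (1.05) rose, while Herpud1, of protein disposal from the endoplasmic reticulum, fell (-1.001, adjusted p = 4.33e-05). Among NRF2 and oxidative stress genes 8 were higher and 4 lower of 19. The cystine transporter Slc7a11 (2.73, adjusted p = 5.54e-04) and extracellular superoxide dismutase Sod3 (0.77) rose, and Nqo1 (-0.54, adjusted p = 1.59e-04) and catalase, Cat (-0.50), fell.

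The lists of protein breakdown and of the clock held a share of called genes below that over all genes. The ubiquitin ligase of muscle atrophy Fbxo32 was lower at 104, 101 and 67.9 against 253, 224 and 201 CPM (-1.29, adjusted p = 7.66e-05), whereas its companion Trim63 did not pass (-0.13, adjusted p = 0.730). The immunoproteasome subunits Psmb8 (1.10, adjusted p = 1.18e-05) and Psmb9 (1.23) were higher, and of the 19 genes of that list 5 were lower and 2 higher. Of 18 clock genes 6 were higher and 2 lower. Bhlhe40 had 497, 505 and 519 against 84.2, 95.0 and 110.1 CPM (2.42, adjusted p = 1.36e-10), Bhlhe41 2.22 and Nfil3 2.22. The output genes Dbp (4.66, 10.9 and 29.5 against 21.0, 25.6 and 40.9 CPM) and Per3 (6.28, 10.4 and 24.4 against 15.7, 22.05 and 41.0 CPM) did not pass (-0.99, adjusted p = 0.327 and -0.95, adjusted p = 0.308), and both were highest in replicate 3 of each region. Adipocyte markers were mostly below the filter, with Plin4 lower (-0.95, adjusted p = 3.43e-06), and of skeletal muscle markers Ckm was lower (-0.27, adjusted p = 0.0263), not without non-infarcted replicate 1 (0.0791) or 3 (0.0876).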
